A study of Mus musculus with 7 samples.

Results

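The cell cycle and DNA replication genes described here are a list of 50 mouse genes, grouped as S phase genes (15), G1 and G1/S genes (8), G2/M genes (22) and inhibitors of cyclin-dependent kinases, or CDKs (5). Each gene was found on the array by the symbol of its accession, and 48 of the 50 had a named probe, out of 17047 genes named on the array. The other 2, Ccnd1 and Mki67, are not described further as transcripts. The 48 genes had 67 probes, and 15 of them had several.

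Total RNA of 7 mouse samples was hybridised to 7 one-colour arrays, 1 array for each group, in a study of gastrointestinal tissue grown from embryonic stem (ES) cells. The first culture was stomach-type tissue of day 42, differentiated from ES cells and kept in a medium with EGF at 50 ng/mL, R-spondin1 at 250 ng/mL, FGF10 at 100 ng/mL, Wnt3a and Noggin. The second was tissue of the same kind at day 46, which spent the last 4 days with Shh at 100 ng/mL and Bmp4 at 10 ng/mL in place of the factors that went with FGF10, EGF being named for both media. Adult stomach, intestine, esophagus and lung came from mice of the outbred ICR strain, and a stomach primordium came from ICR embryos at embryonic day 9.5 (E9.5). The labels name no ES cell line and no age or number of adult animals, and do not say whether embryos or cultures were pooled. No group had a replicate, so no value here has a biological error and no difference was tested.

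In a dividing cell the cyclins and their CDK partners switch on one after another. D and E cyclins carry the cell through G1, the replication machinery then copies the DNA in S phase, and A and B cyclins with the mitotic kinases and spindle proteins divide the chromosomes in G2 and M. The inhibitors of the Cip/Kip and Ink4 families bind CDKs or their cyclin complexes and hold the cell in G1. In the adult gut, division is confined mainly to the progenitors of the epithelial glands and crypts, while the early gut tube divides throughout.

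Levels are log2 processed signals relative to the 75th percentile of the array, so a level of 0 equals that percentile. They compare arrays for 1 gene and not genes with each other. "Not well above background" means that the scanner software did not flag the probe as above its local background. A difference is the log2 level on the first array minus that on the second, and at least 2-fold means a log2 difference of at least 1 in size. In each comparison the standard deviation (SD) between different probes of 1 gene is given as a technical error of a difference. It contains no variation between animals or cultures. Error of labelling, hybridisation or slide that all probes of an array share is not in it either. Probes printed in 10 spots had a median SD between spots of 0.06 to 0.10 per array. In bulk tissue, fewer dividing cells and less of a transcript in each cell cannot be told apart.

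The arrays differed in ways that bear on all comparisons. The 4 adult organs shared 1 slide, and the 3 other arrays lay on 3 further slides, so slide and sample cannot be told apart for the day 42, day 46 and E9.5 arrays. The day 46 array stood apart, with spike-in control signals 2.93 log2 units below the median of the other 6 arrays (a difference of -2.93, unscaled) and 90.5% of genes well above background, against 78.3% to 85.1% elsewhere. The medians of the organ marker lists were highest in their own organ (7.75 in stomach, 8.34 in intestine, 6.48 in esophagus and 8.39 in lung), but single markers were not: the esophagus gene Ivl was not well above background in esophagus (-6.63, against 1.13 at day 46), and the intestine gene Lgr5 was at -1.83 in intestine and 2.43 at day 42. The adult stomach array also held the esophagus list, at a median of 4.50 (Krt5 at 6.31), and the esophagus array held the lung genes Sftpc at 5.12 and Scgb1a1 at 5.44. The primordium held the stomach regulator Barx1 at 0.98. In the cultures the stomach gene Tff1 was at 4.36 (day 42) and 6.19 (day 46), the acid pump gene Atp4b was at -4.84 and -3.87 against 9.94 in adult stomach, and markers of other organs were present. Of the 3 liver genes Alb was at 5.67 and 6.08, Fgb at 5.71 and 5.00 and Ttr at -2.48 and -3.91, and the 3 heart muscle genes had medians of 4.75 and 3.53. The part of these other cell types in the results was not tested.

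Stretches upstream of several members are shown because the S phase and G2/M genes, whose levels are described below, differ in the short sequence motifs near their start sites. As background, E2F factors bind their sites in promoters of S phase genes, NF-Y binds the CCAAT box, and the cell cycle genes homology region (CHR) lies in promoters of many genes of late cell cycle. RefSeq windows of 300 bases (250 before the start site and 50 after, assembly GRCm38.p6) were available for 38 of the 50 listed genes, Mki67 among them, taking the first window where a gene had several. Both strands were searched for the CHR letters TTTGAA, the CCAAT letters, and 4 E2F words (TTTGGCGC, TTTCGCGC, TTCCCGCC and TTTCCCGC), of which some can overlap each other. In the lines below, the 140 bases before the start site are printed on the strand of the gene, with the matches on either strand in capitals. The S phase genes Mcm6 and Rrm1 show E2F words and CCAAT letters. Cdc20, Top2a and Cdk1 show CHR and CCAAT letters, Cdk1 also shows an E2F word, and Ccnb1 shows CCAAT letters alone. Mcm6 lies at chr1:128359706-128359845 (minus strand), Rrm1 at chr7:102441555-102441694 (plus), Cdc20 at chr4:118437344-118437483 (minus), Top2a at chr11:99024190-99024329 (minus), Cdk1 at chr10:69352913-69353052 (minus) and Ccnb1 at chr13:100786487-100786626 (minus).
Mcm6: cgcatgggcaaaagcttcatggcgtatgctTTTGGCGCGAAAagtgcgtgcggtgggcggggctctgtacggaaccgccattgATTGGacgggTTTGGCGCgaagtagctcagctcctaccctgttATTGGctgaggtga
Rrm1: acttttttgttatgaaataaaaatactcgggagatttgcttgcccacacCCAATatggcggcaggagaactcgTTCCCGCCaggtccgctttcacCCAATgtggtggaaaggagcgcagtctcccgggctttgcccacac
Cdc20: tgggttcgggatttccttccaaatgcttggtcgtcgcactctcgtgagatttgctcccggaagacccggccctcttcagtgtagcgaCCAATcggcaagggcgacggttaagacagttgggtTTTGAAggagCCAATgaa
Top2a: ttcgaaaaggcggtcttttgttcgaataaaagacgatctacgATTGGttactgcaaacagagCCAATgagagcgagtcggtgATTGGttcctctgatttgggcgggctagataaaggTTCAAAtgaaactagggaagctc
Cdk1: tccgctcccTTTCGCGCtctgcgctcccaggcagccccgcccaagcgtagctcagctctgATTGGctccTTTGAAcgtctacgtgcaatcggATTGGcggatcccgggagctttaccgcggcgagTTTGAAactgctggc
Ccnb1: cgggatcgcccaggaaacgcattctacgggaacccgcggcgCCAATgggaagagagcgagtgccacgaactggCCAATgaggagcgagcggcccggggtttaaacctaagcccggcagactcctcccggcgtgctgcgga

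The 2 large groups of genes had different letters in these windows. An E2F word was in 8 of 12 S phase windows (66.7%) and in 1 of 16 G2/M windows (6.2%), that of Cdk1, against 3.6% of 27025 promoters of all genes. CHR letters were in 10 of 16 G2/M windows (62.5%) and in 1 of 12 S phase windows (8.3%), that of Mcm2, against 18.1% of all promoters. The CCAAT letters were in 9 of 12 S phase windows (75.0%) and 14 of 16 G2/M windows (87.5%), against 37.9% of all, and all 10 G2/M windows with CHR letters also held CCAAT letters, a pair found in 7.1% of all promoters. In Cdc20 the CHR match began 18 bases before the start site (position -18) and in Kif11 at -19. A match is a match of letters and was not shown to be bound in these samples. Among the 5 windows of inhibitors, each of the 3 kinds of match was found in 1.

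The E9.5 stomach had the highest level of nearly all genes that drive the cycle, and the lowest level of 4 of the 5 inhibitors, though Cdkn2a was not well above background on E9.5 and 3 other arrays. Of 47 members with a value on all 7 arrays, 41 had their highest level there: all 15 S phase genes, all 7 G1 and G1/S genes, 19 of 20 G2/M genes and 0 of 5 inhibitors. Over all 15943 genes above background on at least 1 array and measured on all 7, 26.1% were highest at E9.5. The gap from E9.5 to the next highest array was wide for S phase genes, with a median of 3.16 log2 units (1.87 to 5.06), and for G2/M genes, with a median of 4.41. For the G1 and G1/S genes it was 0.70, and 3 of 7 had a gap of at least 1. Over all genes the median gap was -1.18, negative where another array was higher. Of those 15943 genes, 1739 had a gap of at least 1. Ccnd2 (0.00), Ccnd3 (0.07) and E2f1 (0.27) were near ties. Both other probes of Ccnd2 were higher at day 46 (5.76 and 5.16) than at E9.5 (4.88 and 4.65). Levels on the other 6 arrays spanned a median of 1.71 log2 units for an S phase gene, 1.84 for a G2/M gene and 2.18 for all genes, so the embryonic array lay farther from the rest than these lay from each other for most drivers of the cycle.

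**Figure D1:**
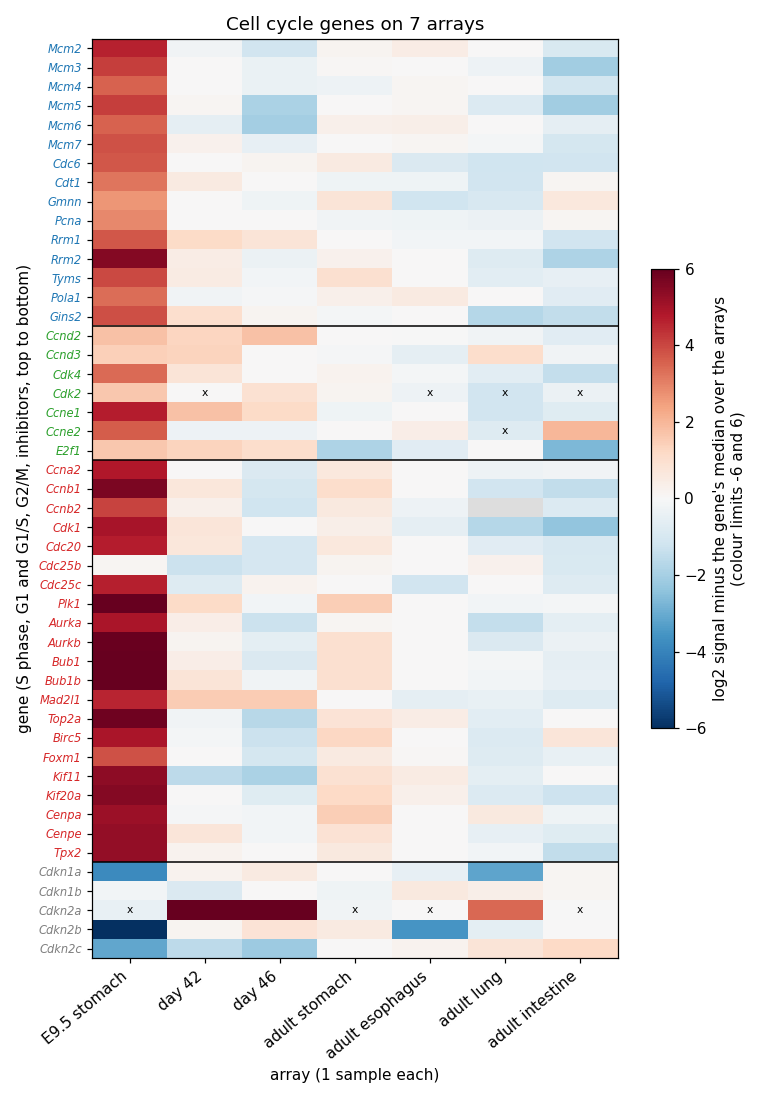
Level of each member on each array, minus that gene's median over the arrays (log2, colour limits at -6 and 6); rows are genes ordered as S phase, G1 and G1/S, G2/M and inhibitors, columns are the 7 arrays, x marks a value not well above background, and the grey cell has no value. The E9.5 column is red for S phase genes and for G2/M genes other than Cdc25b, and blue for Cdkn1a, Cdkn2b and Cdkn2c. Cdkn2a is dark red in the day 42 and day 46 columns.

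E9.5 stomach was compared with adult stomach to set the primordium against the mature organ. At least 2-fold higher at E9.5 were 42 of 47 members measured (27.3% of 15084 genes tested), and 3 were at least 2-fold lower (29.8%). The SD between probes was 0.63 in this comparison. The medians were 3.74 for the S phase genes (15 of 15 at least 2-fold higher), 3.22 for the G1 and G1/S genes (7 of 7), 4.55 for the G2/M genes (20 of 21) and -3.46 for the inhibitors (0 higher and 3 lower of 4). On median-centred arrays 38.9% of genes were higher and 22.4% lower, and the counts of members were again 42 and 3, with the median over all genes moved to 0.54. The embryonic haemoglobin genes Hbb-y (6.43), Hbb-bh1 (6.85) and Hba-x (5.62), markers of primitive red blood cells, were high on the E9.5 array. On that array 7 of 7 erythroid markers were well above background, with a median of 0.97, against medians of -3.13 to -6.49 on the other arrays. The part of red cell precursors in the cell cycle values was not tested.

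Among the S phase genes, the Mcm2 to Mcm7 helicase subunits open the DNA at replication origins. Mcm2 had a level of 4.10 at E9.5, -0.74 at day 42, -1.66 at day 46, -0.33 in stomach, -0.07 in esophagus, -0.51 in lung and -1.42 in intestine. Mcm6 stood at 6.63 at E9.5, 2.58 at day 42, 1.06 at day 46, 3.40 in stomach, 3.47 in esophagus, 3.11 in lung and 2.59 in intestine. For both genes the E9.5 array was highest by more than 3 log2 units and day 46 was lowest. The 6 subunits were higher at E9.5 than in adult stomach by 3.23 (Mcm6) to 4.43 (Mcm2), with Mcm3 at 4.03, Mcm4 at 3.85, Mcm5 at 4.16 and Mcm7 at 3.80. Mcm3 was at -3.19 in intestine and between -1.40 and -1.02 in the other 3 adult organs. The factors that load the helicase, Cdc6 and Cdt1, were 3.19 and 3.48 higher at E9.5 than in adult stomach.

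The genes that supply deoxynucleotides or act at the fork had the same high array. Rrm2, the small subunit of ribonucleotide reductase, was at 3.67 at E9.5, -1.39 at day 42, -2.18 at day 46, -1.56 in stomach, -1.83 in esophagus, -2.61 in lung and -3.70 in intestine, which makes its difference of 5.22 from adult stomach the largest of the S phase group. Pcna, the sliding clamp of the polymerases, was at 5.94 at E9.5 (mean of 10 spots) and lay between 2.70 (lung) and 3.18 (intestine) on the other 6 arrays. Its range over those 6 arrays, 0.48, was the narrowest of the S phase group. Gmnn, which blocks the licensing factor Cdt1, had the smallest difference of the group between E9.5 and adult stomach, 1.86. Tyms, which makes thymidylate (2.99), Pola1 (3.07), Rrm1, the large reductase subunit (3.74), and Gins2 (3.97) lay between Gmnn and Rrm2. The levels of Gmnn were 5.06 at E9.5, 2.40 at day 42, 2.15 at day 46, 3.19 in stomach, 1.21 in esophagus, 1.45 in lung and 3.05 in intestine.

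Other genes of the replication machinery, from a list of 31 that are not members, were placed alike. Of 30 with a named probe, 29 were at least 2-fold higher at E9.5 than in adult stomach (27.3% of all genes) and 0 lower (29.8%), with a median of 3.37. Uhrf1, which brings the maintenance methyltransferase to new DNA, was 4.84 higher. Of 9 further genes of the E2F family and its partners, 7 were at least 2-fold higher (27.3% of all genes), with E2f7 at 5.46.

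The G2/M genes had the largest median difference between the embryo and the adult stomach. Bub1, a kinase of the spindle checkpoint, was at 2.85 at E9.5, -3.24 at day 42, -4.49 at day 46, -2.67 in stomach, -3.62 in esophagus, -3.72 in lung and -4.16 in intestine, a difference of 5.52 between E9.5 and adult stomach. Top2a, which untangles sister DNA, was at 3.56 at E9.5, -2.50 at day 42, -3.95 at day 46, -1.44 in stomach, -1.81 in esophagus, -2.91 in lung and -2.27 in intestine. Both genes had 1 high array, and day 46 was their lowest. Top2a (5.00) was also more than 4 log2 units higher at E9.5 than in adult stomach. Bub1b (5.20), Aurkb (4.95), Aurka (4.80), Plk1 (4.78) and Tpx2 (4.69), which act in the checkpoint, the chromosome passenger complex or the spindle, were too. So were the centromere kinesin Cenpe (4.38), the spindle kinesin Kif11 (4.45), Mad2l1 (4.55), Ccnb1 (4.58), Cdk1 (4.60), Kif20a (4.31), Cdc20 (4.07) and Ccna2, the A cyclin of S and G2 (4.14). Foxm1 (3.29), Ccnb2 (3.47), Cenpa (3.64) and Birc5 (3.65) were higher by less than 4 log2 units.

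On the probe used, Cdc25b was the exception among the G2/M genes. This phosphatase activates CDKs at the entry to mitosis, and its levels were 2.0 at E9.5, 0.57 at day 42, 0.83 at day 46, 2.04 in stomach, 1.86 in esophagus, 2.10 in lung and 0.93 in intestine. Its E9.5 level differed from adult stomach by -0.04, within the SD between probes, and its highest array was lung. The probes of Cdc25b disagreed on this order. A second probe was highest at E9.5 (2.02), with 1.61 in lung and 1.12 in stomach. Another, with low signal, was at -3.72 at E9.5, -3.61 in lung and -4.01 in stomach. The related Cdc25c was 4.66 higher at E9.5 than in adult stomach. Of 38 further mitosis genes, 38 were at least 2-fold higher at E9.5 (27.3% of all genes), with a median of 3.81. Kif2c, a kinesin that takes microtubules apart, was at 5.01.

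The G1 and G1/S genes were split. Ccne1, the E cyclin that activates Cdk2, was at 4.76 at E9.5, 1.79 at day 42, 1.21 at day 46, -0.24 in stomach, 0.04 in esophagus, -1.13 in lung and -0.70 in intestine. Ccnd2, a D cyclin that reports growth factor signals to Cdk4, was at 5.35 at E9.5, 4.91 at day 42, 5.35 at day 46, 3.60 in stomach, 3.58 in esophagus, 3.37 in lung and 2.93 in intestine. The E9.5 array was far above the rest for Ccne1, while for Ccnd2 both cultures were within 0.44 of it. Against adult stomach, Ccne2 was 3.61, Cdk4 3.22, Ccnd2 1.75 and Ccnd3 1.47 higher at E9.5. Cdk2 was not well above background on the day 42, esophagus, lung and intestine arrays, and its levels were -4.00 at E9.5, -4.70 at day 46 and -5.45 in stomach. With normexp, another background correction, its difference of 1.45 between E9.5 and adult stomach became -0.04, and the median of the G1 and G1/S genes was 2.07.

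E2f1, a transcription factor that switches on S phase genes, also had culture levels near the embryonic one. They were -0.30 at day 42, -0.60 at day 46 and -0.03 at E9.5, against -3.51 in stomach, -2.32 in esophagus, -1.65 in lung and -4.36 in intestine. A second probe of E2f1 placed the adult stomach lowest but 1 as well, with smaller differences: 1.55 against 3.21 for day 42 minus stomach and 2.22 against 3.48 for E9.5 minus stomach.

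The day 42 culture was compared with adult stomach to ask how near the cultured tissue lay to the mature organ. At least 2-fold higher at day 42 were 8 of 48 members (20.1% of 14813 genes) and at least 2-fold lower were 7 (22.7%), so neither share of members was above that of all genes. The SD between probes was 0.87. The group medians were 0.11 for S phase, 1.31 for G1 and G1/S, -0.54 for G2/M and -0.36 for the inhibitors. On median-centred arrays, where 32.4% of genes were higher and 15.3% lower, 10 members were at least 2-fold higher and 3 lower, and the inhibitor median was 0.10.

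Of the 8 members higher in the day 42 culture, 4 were G1 regulators. E2f1 (3.21), Ccne1 (2.03), Ccnd3 (1.40) and Ccnd2 (1.31) were at least 2-fold higher, out of 7 G1 and G1/S genes measured, and E2f1 was 2.02 higher with normexp. Mad2l1, a spindle checkpoint protein, was 1.50 higher, Rrm1 1.16 and Gins2, a subunit of the replicative helicase, 1.14, and the inhibitor Cdkn2a is given with its group. The Mcm genes lay between -0.82 (Mcm6) and 0.34 (Mcm4) of adult stomach, within the SD between probes. Members at least 2-fold lower were 6 G2/M genes and the inhibitor Cdkn2c, with the spindle kinesin Kif11 (-2.50, or -1.63 with normexp), Cdkn2c (-1.58) and the centromeric histone Cenpa (-1.53) the lowest.

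Against E9.5 stomach the day 42 culture was lower for 40 of 48 members by at least 2-fold (25.9% of 14686 genes) and higher for 4 (28.1%), with an SD between probes of 0.89. It shares the day 42 array with the comparison above, and the comparisons with adult stomach all share that array. The S phase median was -3.54 (15 of 15 at least 2-fold lower), the G1 and G1/S median -1.56 (4 of 7), the G2/M median -4.99 (21 of 21) and the inhibitor median 4.04 (4 of 5 at least 2-fold higher), or 2.79 over the inhibitors above background on both arrays. Kif11 was -6.95 (-5.14 with normexp), Bub1 -6.09 and Top2a -6.06. Ccnd3 (-0.07), E2f1 (-0.27) and Ccnd2 (-0.44) differed from E9.5 by less than the SD between probes.

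**Figure D2:**
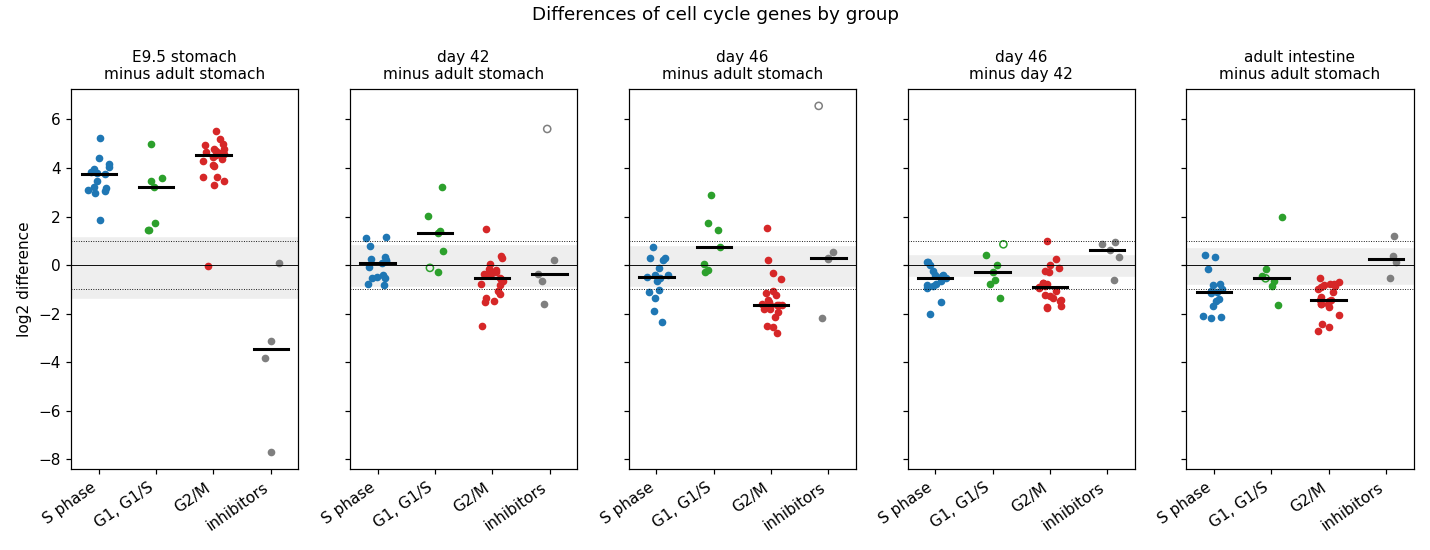
Log2 difference of each member in 5 comparisons, by group; points are genes, open points are bounds for genes not well above background on 1 array, the thick bar is the group median, the grey band spans the quartiles of all genes tested, and dotted lines mark 2-fold. S phase points and all G2/M points but Cdc25b (-0.04) lie above the grey band in the comparison of E9.5 with adult stomach. The medians there are 3.74 and 4.55, and the G2/M median is -1.62 for day 46 against adult stomach.

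The day 46 culture was compared with day 42 to follow the 4 days with Shh and Bmp4. At least 2-fold lower at day 46 were 12 of 48 members (6.49% of 15446 genes) and 0 were at least 2-fold higher (9.03%). The 12 were 9 of 21 G2/M genes, 2 of 15 S phase genes and Ccnd3. The SD between probes was 0.51, and the median was -0.89 for G2/M, -0.52 for S phase, -0.30 for G1 and G1/S (0.17 with the mean over a gene's probes) and 0.64 for the inhibitors, beside 0.00 over all genes. This comparison rests on the day 46 array, whose spike-in signals were low, and their part in the differences was not tested. Median centring moved the median over all genes to -0.39, with 3.87% of genes higher and 18.0% lower, and 24 members were then at least 2-fold lower. After quantile normalization 4.67% of genes were higher and 6.80% lower.

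The G2/M genes lower at day 46 include the B cyclins, the mitotic kinases and the activator of the anaphase-promoting complex. Ccnb1, the cyclin partner of Cdk1, was at -2.59 at day 42, -4.35 at day 46, -2.24 in stomach, -3.29 in esophagus, -4.44 in lung, -4.79 in intestine and 2.34 at E9.5. Its difference between the cultures was -1.76, and both of its other probes were also lower at day 46. Ccnb2 differed by -1.47. Cdc20, the activator of the anaphase-promoting complex, was at 1.55 at day 42, -0.15 at day 46, 1.49 in stomach, 0.85 in esophagus, 0.19 in lung, -0.10 in intestine and 5.56 at E9.5. For Ccnb1 and Cdc20 the day 42 level was near that of adult stomach, and the day 46 level was near those of lung and intestine.

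The kinases Aurka and Plk1, which build the spindle, were placed alike. Aurka was at 0.62 at day 42, -1.10 at day 46, 0.31 in stomach, 0.20 in esophagus, -1.24 in lung, -0.37 in intestine and 5.12 at E9.5, and Plk1 was at 0.46, -0.87, 0.76, -0.70, -0.86, -0.83 and 5.55 in the same order. They were lower at day 46 than at day 42 by differences of -1.73 and -1.33. Top2a (-1.45), Bub1 (-1.25), Birc5, the survivin subunit of the passenger complex (-1.21), and Foxm1, a transcription factor of G2/M genes (-1.08), complete the G2/M genes at least 2-fold lower.

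Other G2/M genes were lower at day 46 by less than 2-fold, among them Bub1b (-0.95), Cenpe (-0.89, or 0.06 with the mean over probes), Ccna2 (-0.87), Aurkb (-0.77) and Kif20a (-0.75). Mad2l1 (0.02), Cenpa (-0.11), Tpx2 (-0.24), Cdc25b (0.26) and Kif11 (-0.29) differed by less than the SD between probes, and Cdc25c was 0.98 higher (-0.04 with normexp and -0.03 with the mean over probes). Cdk1, the kinase of mitosis, was at -1.12 at day 42, -1.84 at day 46, -1.51 in stomach, -2.39 in esophagus, -3.54 in lung, -4.20 in intestine and 3.09 at E9.5. Its second probe, not well above background at day 42, had the opposite sign (1.93), and the second probe of Kif11 did too (1.75). Over the other probes of the members that were above background on both arrays, 9 of 11 had the sign of the probe used.

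In S phase, Mcm5 and Mcm6 were the genes at least 2-fold lower at day 46. Mcm5 was at 0.83 at day 42, -1.17 at day 46, 0.72 in stomach, 0.84 in esophagus, -0.12 in lung, -1.38 in intestine and 4.88 at E9.5. Its difference of -2.0 was the largest among the members, and that of Mcm6 was -1.53. Pcna (0.00), Pola1, the catalytic subunit of polymerase alpha (0.13), and Cdc6, which loads the helicase (0.15), had no lower level at day 46. Of 30 further replication genes 2 were at least 2-fold lower, Uhrf1 (-1.24) and Chaf1b (-1.17), a share near the 6.49% of all genes. Of 38 further mitosis genes 14 were lower (6.49% of all genes), among them Cenpf (-1.61) and Sgo1 (-1.52). In that list 1 was higher (9.03% of all genes), Ndc80 (1.85).

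Ccnd3 was the G1 gene at least 2-fold lower at day 46. This D cyclin was at 4.27 at day 42, 2.94 at day 46, 2.87 in stomach, 2.41 in esophagus, 3.98 in lung, 2.73 in intestine and 4.35 at E9.5, a difference of -1.33 between the cultures. The other D cyclin, Ccnd2, was 0.43 higher at day 46 and its 2 other probes were higher too. The probes of E2f1 disagreed in sign, at -0.30 and 0.64.

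**Figure D3:**
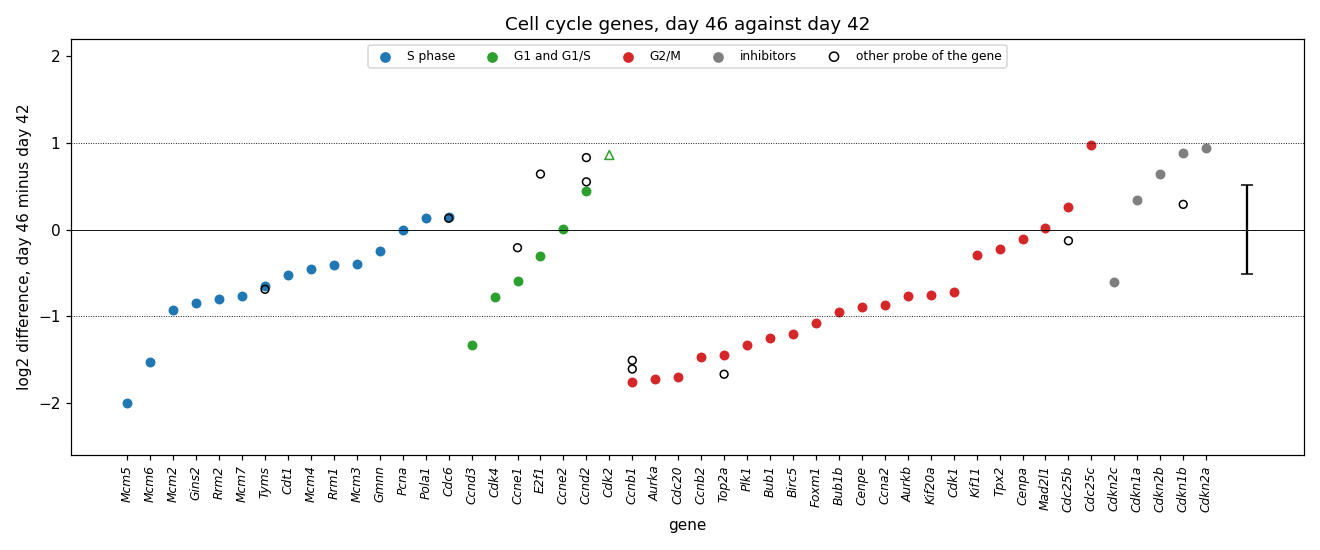
Log2 difference between the day 46 and the day 42 array for each member, ordered within its group; open circles are other probes of the gene above background on both arrays, the triangle is a bound, dotted lines mark 2-fold, and the bar at the right is the SD between probes (0.51). The points below the lower dotted line are 9 G2/M genes, 2 S phase genes and Ccnd3, and 4 of the 5 inhibitors lie above 0.

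Against adult stomach the day 46 culture was lower by at least 2-fold for 23 of 48 members (22.2% of 15725 genes) and higher for 5 (19.4%), with an SD between probes of 0.85. Of the 21 G2/M genes 17 were at least 2-fold lower (median -1.62), and of the 15 S phase genes 5 (median -0.47). Kif11 (-2.78), Birc5 (-2.55) and Top2a (-2.52) were the lowest G2/M genes, and Mcm6 (-2.34) and Mcm5 (-1.89) the lowest S phase genes. The value of Kif11 rests on 1 probe: its second probe, not well above background in adult stomach, gave 0.57, and the mean over probes was -1.11. E2f1 (2.91), Ccnd2 (1.75), Mad2l1 (1.52) and Ccne1 (1.45) were at least 2-fold higher, as was Cdkn2a. Against E9.5 stomach, 40 members were lower at day 46 (26.4% of 15695 genes) and 3 higher (28.7%), with an SD between probes of 0.88. The medians were -3.97 for S phase, -1.40 for G1 and G1/S, -5.72 for G2/M and 4.38 for the inhibitors (2.66 over those above background on both arrays). With median centring 37.0% of all genes were lower than at E9.5 and 21.2% higher.

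Among the groups of members, only the inhibitors had a median difference from E9.5 above 0 in both cultures. Within the group, Cdkn1b was lower at day 42 than at E9.5 (-0.72). Of 11 other inhibitors and pocket proteins, 6 were at least 2-fold higher (28.1% of all genes) and 4 lower (25.9%) at day 42 than at E9.5. Among the lower was Cdkn1c, at 5.99 at E9.5, 2.47 at day 42, 1.59 at day 46 and 2.47 in adult stomach. Cdkn1a, which encodes p21 and is a classical target of p53, was at 3.88 at day 42, 4.22 at day 46, 3.66 in stomach, 3.15 in esophagus, 0.50 in lung, 3.79 in intestine and -0.16 at E9.5. Cdkn2b, which encodes p15Ink4b, was at 3.90 at day 42, 4.54 at day 46, 4.27 in stomach, 0.18 in esophagus, 3.13 in lung, 3.73 in intestine and -3.42 at E9.5. For both genes the cultures lay beside adult stomach and intestine, and E9.5 was the lowest array. The day 42 culture was 4.04 above E9.5 for Cdkn1a and 7.33 for Cdkn2b, while it differed from adult stomach by 0.22 and -0.36.

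Cdkn2a set both cultures apart from all 5 tissues. The locus encodes p16Ink4a and p19Arf from alternative first exons with shared later exons. The files do not say where in it the probe lies, so its 2 products cannot be told apart here. The level was -0.70 at day 42 (9 spots), 0.24 at day 46 (10 spots) and -4.57 in lung. In esophagus (-8.03), stomach (-8.26), intestine (-8.06) and E9.5 stomach (-8.49) it was not well above background. Against the lowest signal above background on the other array, Cdkn2a was at least 49.0-fold higher at day 42 and at least 94.2-fold higher at day 46 than in adult stomach, and at least 53.2-fold higher at day 42 than at E9.5. With normexp its log2 difference from adult stomach was 2.54 at day 42 and 3.42 at day 46.

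The remaining inhibitors among the members had other orders. Cdkn2c, which encodes p18Ink4c, was at -1.45 at day 42, -2.04 at day 46, 0.13 in stomach, 0.33 in esophagus, 0.90 in lung, 1.34 in intestine and -2.98 at E9.5, so the cultures lay between the embryo and the adult organs. Cdkn1b, which encodes p27, was at -1.60 at day 42, -0.72 at day 46, -0.96 in stomach, -0.13 in esophagus, -0.37 in lung, -0.59 in intestine and -0.87 at E9.5. It had the narrowest range of the 5 inhibitors. Between the cultures, Cdkn2a (0.94), Cdkn1b (0.88), Cdkn2b (0.64) and Cdkn1a (0.34) were higher at day 46 and Cdkn2c was lower (-0.60), all by less than 2-fold.

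**Figure D4:**
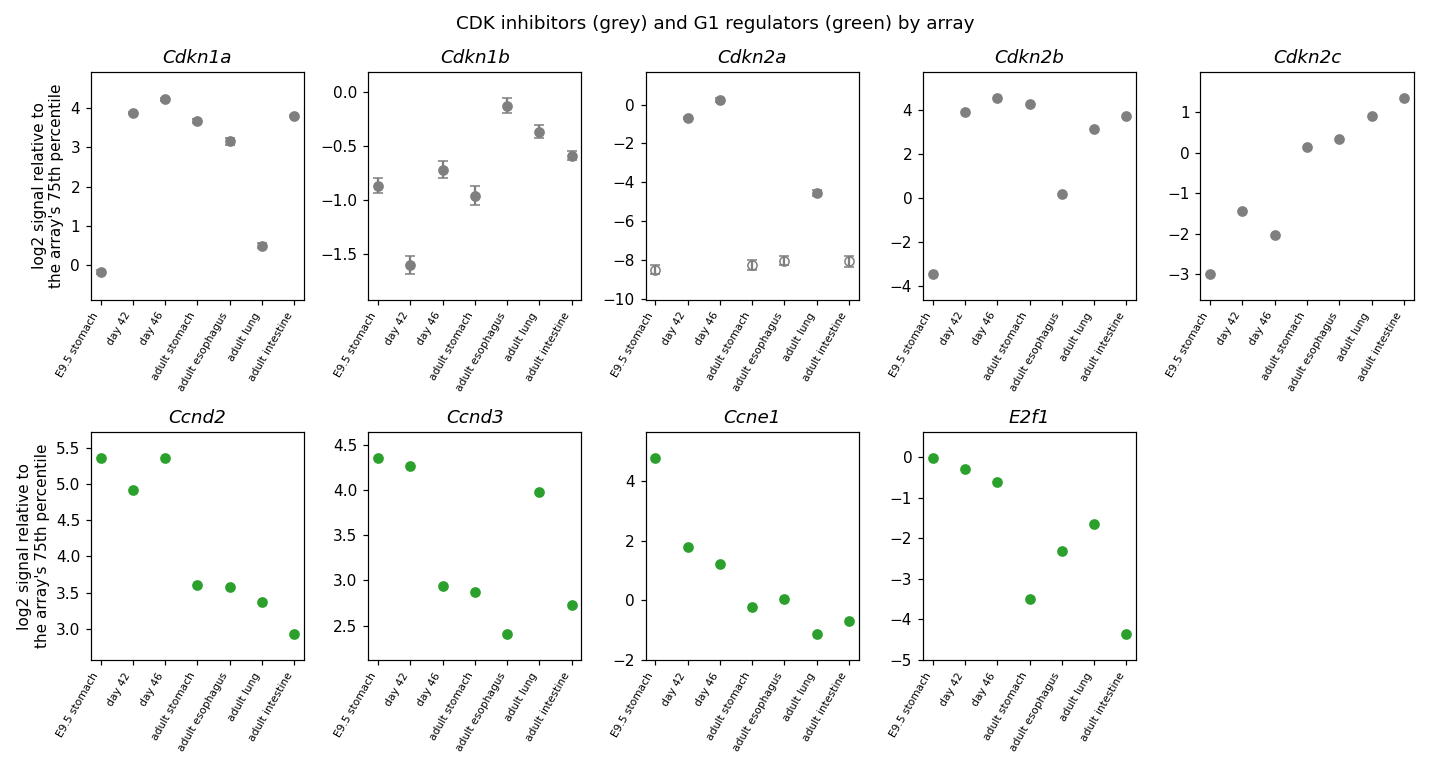
Level of the 5 CDK inhibitors (grey) and of 4 G1 regulators (green) on the 7 arrays, as log2 signal relative to the 75th percentile of the array, each panel with its own axis; open circles are not well above background, and bars, where drawn, are the SD between 10 spots of a probe. Cdkn2a is at -0.70 and 0.24 on the culture arrays and at -8.03 or below on 4 of the 5 tissue arrays, and Ccnd2 and E2f1 have culture levels near that of E9.5.

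Further targets of p53, a list of 15 genes that does not contain Cdkn1a, were mostly higher in the cultures than in adult stomach. Cdkn1a itself differed from adult stomach by less than 2-fold, at 0.22 at day 42 and 0.56 at day 46. At day 42, 11 of 15 were at least 2-fold higher than in adult stomach (20.1% of all genes) and 1 was lower (22.7%), with a median of 1.88. Trp53inp1, a regulator of cell death, was 3.14 higher and Phlda3, an inhibitor of Akt signalling, 2.60 higher, and Perp, a component of desmosomes, was lower (-3.54). The day 46 culture had 12 of the 15 at least 2-fold above adult stomach (19.4% of all genes) and 1 below (22.2%). Their median was 1.68, with Gadd45a at 3.40. In adult intestine 5 of 14 were at least 2-fold above adult stomach (17.9% of all genes), with Gadd45a at 3.01, and 3 below (19.2%). In esophagus 3 of 15 were above (14.0%), with Phlda3 at 1.60, and 1 below (15.6%). Of the 11 other inhibitors and pocket proteins, 3 were at least 2-fold higher (20.1% of all genes) and 2 lower (22.7%) at day 42 than in adult stomach.

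Among the 4 adult organs, the stomach had the highest level of most G2/M genes. The highest of the 4 levels was that of stomach for 28 of 47 members (24.3% of all genes), and these were 18 of 20 G2/M genes, 6 S phase genes, 3 G1 and G1/S genes and 1 inhibitor. The lowest was that of intestine for 23 members (29.0%). Intestine was at least 2-fold lower than stomach for 23 of 47 members (19.2% of 14991 genes) and higher for 2 (17.9%), with an SD between probes of 0.53. The medians were -1.43 for G2/M, with 21 of 21 genes below 0, and -1.09 for S phase. With normexp the intestine was at least 2-fold lower for 12 members (11.6% of all genes) and the G2/M median was -0.58.

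Single genes show the order of the adult organs. Birc5 was at 2.69 in stomach, 1.45 in esophagus, 0.63 in lung and 2.16 in intestine, and Kif20a, a kinesin of cell separation, was at -0.06, -0.93, -2.09 and -2.47 in the same order. Stomach was the highest of the 4 for both, and the intestine lay near it for Birc5 alone. Cdk1 (-2.69), Ccnb1 (-2.55) and Kif20a (-2.42) had the largest differences between intestine and stomach (-0.94, -0.95 and -1.72 with normexp), whereas Ccne2 was 1.99 higher in intestine. Of the 30 further replication genes 13 were at least 2-fold lower in intestine (19.2% of all genes) and 3 higher (17.9%). Of 37 further mitosis genes 19 were lower and 1 higher, Pttg1 at 2.89, beside the same shares of all genes.

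Lung was at least 2-fold lower than stomach for 21 of 47 members (21.8% of 14751 genes) and higher for 3 (18.0%), with an SD between probes of 0.56 and medians of -1.35 for G2/M and -0.38 for S phase. Cdkn1a was lower in lung by a difference of -3.16. Esophagus was at least 2-fold lower for 8 of 47 members (15.6% of 14863 genes) and higher for 1 (14.0%), with an SD between probes of 0.48. Its S phase genes had a median of 0.03 and its G2/M genes -0.88. Cdkn2b was lower in esophagus by a difference of -4.09. The lymphocyte markers had list medians of 0.14 in lung, -1.07 in intestine, -1.93 in stomach and -2.74 in esophagus, with 7 of 7 well above background in each, and the epithelial markers had medians of 2.56, 6.07, 3.64 and -0.57. Their part in the adult values was not tested.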

How the data were processed

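Total RNA of 7 mouse samples was measured on 7 Agilent 4x44K one-colour arrays, 1 per group. Each scanner file gives, per the file headers, a processed and background-corrected intensity per spot, with flags for controls, outliers and signal well above background. Per the labels, Agilent Feature Extraction 10.5 was used, and the headers name 10.7.3.1 (cultures) and 10.5.1.1. The authors also deposited log2 values scaled to the 75th percentile. Their medians ran from -3.43 to -2.68 per array, and their lowest correlation with the scanner-derived values of the same array was 0.9991. Control spots and outlier spots (40 to 728 outliers per array) were left out, spots of a probe were averaged as log2, and the 75th percentile was subtracted. Of 41174 probes, 24432 were named from RefSeq tables (24375 by accession). The probe with the highest mean stood for a gene. A gene above background on 1 array of a pair took the other array's lowest signal above background as a bound. Its own signal there was used instead where that was higher. A gene above background on neither array was left out. Where the bound gave no fold, the difference was set to 0. No test was possible with 1 array per group.

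A value counted as stable where a count stayed within 1.5 times, or a median or gene moved by less than the SD between probes. Alternatives were quantile normalization, median centring, normexp (limma 3.58.1, offset 50, on median signals), the authors' table, no background filter, only genes above background on both arrays, and the mean over probes. Simulated data with known differences were used to check the counting. Every member with a named probe is described, and of each wider list up to 3 genes per comparison with the largest absolute difference. The members, lists and comparisons were chosen with earlier results of these data known.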

Additional observations from a re-analysis of the deposited data

How the results depend on the processing

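Of 175 values of the main counts and of the S phase and G2/M medians under the 7 alternatives, 5 moved past the limits of stability. Median centring gave 24 members at least 2-fold lower at day 46 than at day 42 (12 as reported) and 3 lower at day 42 than in adult stomach (7). Quantile normalization gave 1 member at least 2-fold higher at day 46 than at day 42 (0). Normexp gave 12 members lower in intestine than in stomach (23) and a G2/M median of -0.58 there (-1.43). The share of all genes lower in intestine was then 11.6% (19.2%). Among the further values, normexp gave a G1 and G1/S median of 2.07 for E9.5 minus adult stomach (3.22). With only genes above background on both arrays, the inhibitor medians were 2.79 for day 42 minus E9.5 (4.04), 2.66 for day 46 minus E9.5 (4.38) and -0.27 for lung minus stomach (0.59). Of 2984 single-gene values, 83 moved by more than the SD between probes, and 69 had the opposite sign to the value reported. In 68 of these 69 the reported difference was under 2-fold, and 11 of them also moved by more than that SD. The remaining value, not counted among the 83, was Cdk2 in E9.5 minus adult stomach, at -0.04 under normexp against 1.45. The causes were not tested. The mean over probes turned the day 46 minus day 42 values of Cdk1 from -0.72 to 0.60 and of Kif11 from -0.29 to 0.73, and normexp turned the day 46 minus adult stomach value of Cdk2 from 0.75 to -0.91. Genes near background, such as Cdk2 and Cdc25c, are limited by signal over background. No paired analysis was possible because each group holds 1 array and no test was run.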
